A study of Schizosaccharomyces pombe with 4 samples.

Results

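The genes described here are the splicing factors of the fission yeast Schizosaccharomyces pombe, taken by symbol as every gene of the array named prp, cwf, slu, usp, lsm, smd or sap followed by a number. The gene sap1 was left out, since its name stands for another function. The rule found 67 genes of 4880 named on the array; each had 1 spot and a value on all 4 arrays, so all 67 were tested among 4771 genes. The label holds for all but a small part of the list: Lsm1 is known for decay of mRNA in the cytoplasm, and Sap18 is known in mammals for a histone deacetylase complex as well as for splicing.

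PolyA RNA was hybridised on 4 arrays with 2 channels each. Strain JV565, whose mmi1 gene has the temperature-sensitive mmi1-ts3 mutation, was grown in rich liquid medium (YES) at 25 °C, moved to 36 °C and collected after 30 min. Strain JV558, the wild type, was treated in the same way. Each array set a shifted culture against RNA of its own strain growing at 25 °C, and each strain has 2 arrays, so the values are responses to the shift and not transcript levels. Values were present for 5121 to 5184 of 5188 spots per array. The direction of the ratio is likely the shifted sample over the 25 °C sample, since the heat shock gene hsp16 had log2 ratios of 6.81 and 7.61 in mmi1-ts3 and 7.03 and 7.74 in the wild type. The log base was read as 2 from the range of the values. The 2 arrays of a strain are called replicate 1 and replicate 2, and the replicate 2 arrays are those whose titles carry a code.

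Introns are removed by the spliceosome, which is built anew on each transcript from the small nuclear ribonucleoproteins (snRNPs) U1, U2, U4, U5 and U6. U1 binds the start of the intron and U2 the branch point, the tri-snRNP of U4, U6 and U5 joins, and the Prp19/Cdc5 complex, from which the cwf genes take their name, holds the active form together. RNA helicases drive the steps and take the machine apart. Fission yeast genes often hold introns, and splicing is known to be sensitive to heat. Mmi1 binds transcripts of meiotic genes and marks them for destruction during growth.

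Few splicing factor transcripts passed the test for a response to 36 °C in either strain, measured against the median of each array. In mmi1-ts3, 8 of the 67 fell and 4 rose at an adjusted p under 0.05 (limma, Benjamini-Hochberg over all genes), where 19.6% of all genes fell and 14.9% rose. In the wild type, 4 fell and 3 rose, where 14.5% of all genes fell and 13.5% rose. Both counts of splicing factors are smaller shares than those of all genes, but that difference was not tested. The genes prp43, lsm5, cwf18 and cwf4 fell in both strains, where 13.3% of all genes did. In the same way, sap49 and cwf20 rose in both, where 10.7% of all genes did. Calls in at least 1 strain numbered 13 of the 67, where 38.4% of all genes had one, and the other 54 had none.

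Most members stayed close to the median of their array. In both strains, 40 of the 67 had a mean log2 ratio within 0.5 of 0, which 44.7% of all genes had. The median over the members was −0.11 in mmi1-ts3 and −0.11 in the wild type, against 0.01 and 0.03 over all genes tested. By array, the members' median was −0.11 and −0.09 in mmi1-ts3 and −0.02 and −0.17 in the wild type. Means ranged from −1.89 to 1.27 in mmi1-ts3 and from −1.77 to 1.27 in the wild type. A mean at least 1 away from 0 was found for 7 members in mmi1-ts3 and for 3 in the wild type, where 21.4% and 17.5% of all genes had one. On all 4 arrays, 23 members lay below 0 and 14 above, where 31.6% and 29.9% of all genes did.

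**Figure D1:**
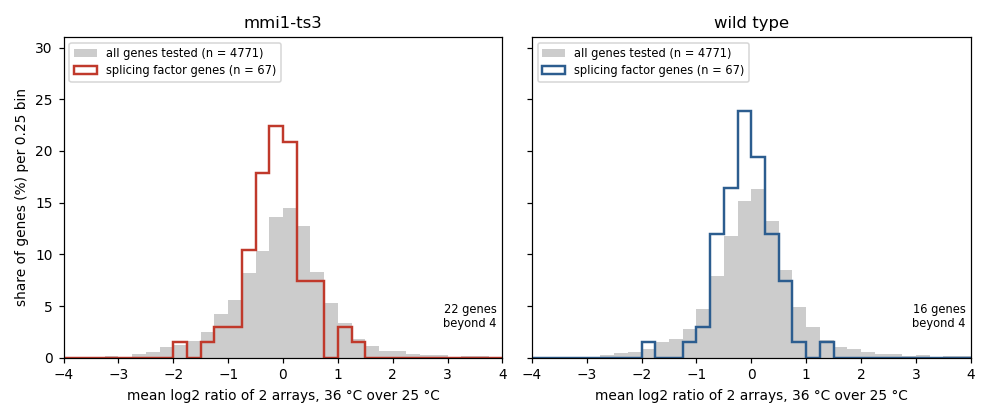
Share of genes (%) in bins of 0.25 of the mean log2 ratio at 36 °C over 25 °C, for mmi1-ts3 on the left and the wild type on the right; grey bars are all 4771 genes tested and the line is the 67 splicing factor genes. The line is narrower than the grey bars in both strains, and 40 of the 67 means lie within 0.5 of 0 in both.

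Most calls were lost when 1 array was left out, which also leaves fewer data for the fit. Leaving out replicate 1 of either strain also brought in calls in that strain for members that the main fit had not called. In mmi1-ts3, prp43, lsm5 and sap49 kept their calls whichever array was left out, and in the wild type prp43 and sap49 did. The mmi1-ts3 calls of lsm6, prp4, cwf4, cwf10, cwf20, prp24 and cwf29 were lost without either array of that strain, that of cwf18 without its replicate 1 and that of prp2 without its replicate 2. Among the wild-type calls, cwf18 was lost without either array of that strain, lsm5 and prp10 without its replicate 2, and cwf4 and cwf20 without any 1 of the 4 arrays. The largest adjusted p of these losses is given beside each gene. Every call was lost when variances were not moderated across genes.

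**Figure D2:**
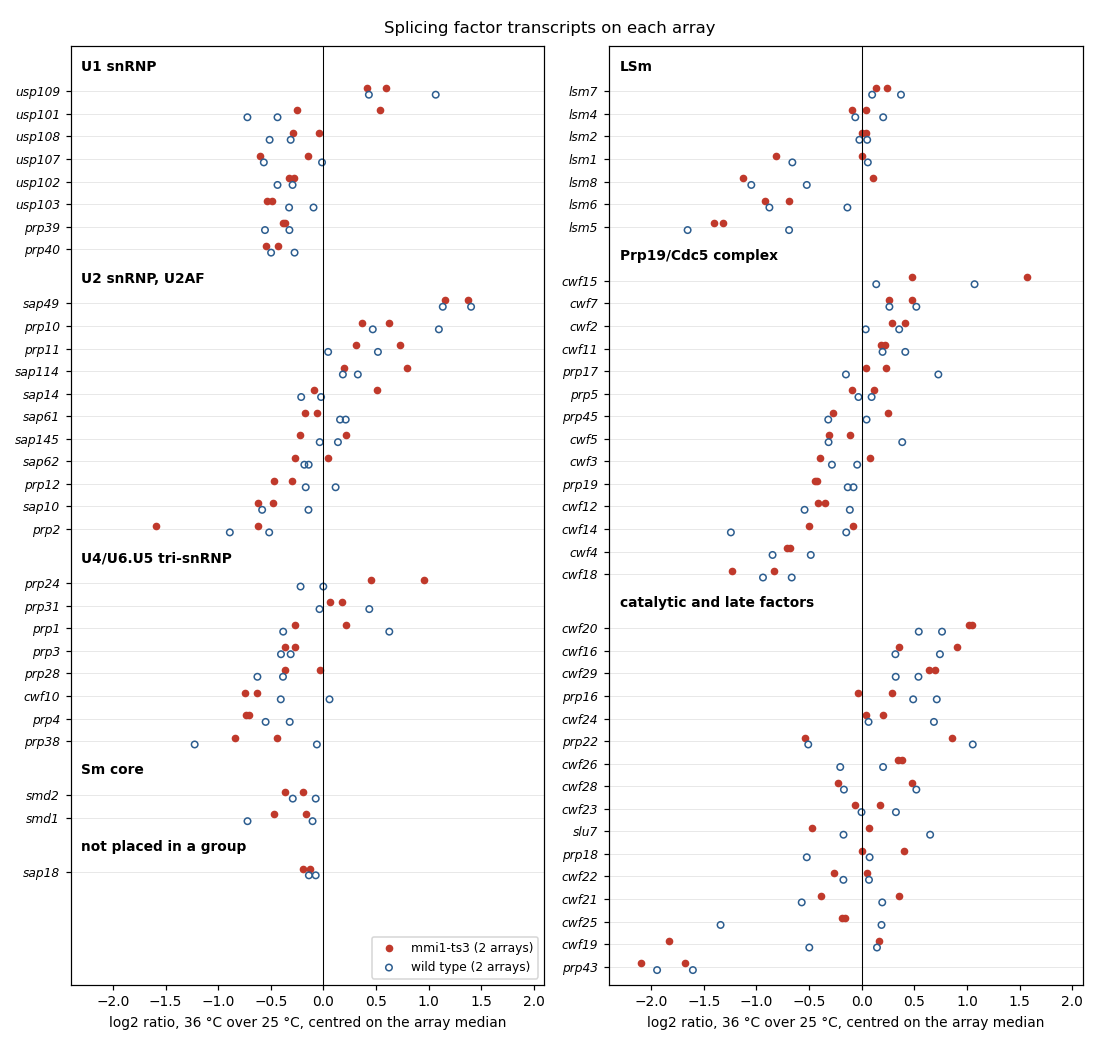
Log2 ratio at 36 °C over 25 °C on each array, centred on the array's median, for all 67 splicing factor genes in groups by role; filled points are the 2 mmi1-ts3 arrays and open points the 2 wild-type arrays, with genes of a group ordered by their mean over the 4 arrays. Most points lie near 0, while prp43 and lsm5 lie to the left and sap49 to the right on every array.

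The U1 snRNP recognises the 5′ splice site. Of its 8 members, 0 passed the test in either strain, and by an unadjusted p under 0.05 2 were lower and 0 higher in mmi1-ts3, and 1 higher and 1 lower in the wild type, where 25.2% of all genes were lower and 21.1% higher in mmi1-ts3, and 20.7% higher and 20.9% lower in the wild type. The group's median was −0.34 in mmi1-ts3 and −0.37 in the wild type. Below 0 on all 4 arrays were 6 of the 8, a larger share than the 31.6% of all genes, and these were small shifts in the centred values. The gene prp40, whose product in budding yeast bridges U1 and the branch point proteins, had −0.43 and −0.55 in mmi1-ts3 and −0.27 and −0.50 in the wild type. Its partner gene prp39 had −0.39 and −0.37 in mmi1-ts3 and −0.32 and −0.56 in the wild type. For usp102, which codes for the U1A protein, the values were −0.33 and −0.28 in mmi1-ts3 and −0.44 and −0.29 in the wild type. These 3 genes were alike in both strains, with overlapping arrays. The exceptions to the sign were usp101, which was above 0 on mmi1-ts3 replicate 2 and is described with the strain differences, and usp109, with 0.42 and 0.60 in mmi1-ts3 and 0.43 and 1.07 in the wild type (adjusted p = 0.12 and 0.0506). The symbol rule does not take luc7, also called usp106, which is named after its values were seen. It had −0.87 and −0.74 in mmi1-ts3 and −0.42 and −0.67 in the wild type. By limma it fell in mmi1-ts3 (adjusted p = 0.0184) and did not pass in the wild type (adjusted p = 0.0665).

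The U2 snRNP and its partners recognise the branch point and the 3′ splice site. Of 11 members, 1 fell and 1 rose in mmi1-ts3, where 19.6% and 14.9% of all genes did. In the wild type 2 rose, where 13.5% of all genes did. The rise of sap49 was the largest of the 67 genes in both strains. This gene codes for an RNA-binding subunit of SF3b, the U2 part that clamps the branch point. It had 1.38 and 1.15 in mmi1-ts3 and 1.40 and 1.13 in the wild type, so the 4 arrays lay close together and the strains overlapped. The rise was 2.40-fold in mmi1-ts3 (mean 1.27 ± 0.16 SD, adjusted p = 0.00507) and 2.41-fold in the wild type (1.27 ± 0.19 SD, adjusted p = 0.00608).

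Of the other SF3b genes only prp10 passed, and in the wild type. This gene, for the largest subunit, which holds the branch point, had 0.63 and 0.36 in mmi1-ts3 and 0.47 and 1.10 in the wild type. It rose in the wild type (0.78 ± 0.44 SD, adjusted p = 0.0463, 0.0622 without centring and 0.274 without wild-type replicate 2), while its adjusted p in mmi1-ts3 was 0.131. Neither sap145 (means of −0.002 in mmi1-ts3 and 0.05 in the wild type) nor sap14 (0.21 and −0.12 in the same order) passed. The gene prp12 had −0.30 and −0.47 in mmi1-ts3 and −0.17 and 0.12 in the wild type, and sap10 had −0.62 and −0.48 in mmi1-ts3 and −0.14 and −0.58 in the wild type. Over the 6 SF3b genes the means thus ran from −0.55 to 1.27 in mmi1-ts3 and from −0.36 to 1.27 in the wild type. The 3 genes of SF3a, the neighbouring U2 part, covered a smaller range, from −0.12 to 0.50 in mmi1-ts3 and from −0.16 to 0.26 in the wild type, and 0 of them passed. Highest among these was sap114, with 0.20 and 0.80 in mmi1-ts3 and 0.18 and 0.33 in the wild type, while sap62 had means of −0.11 in mmi1-ts3 and −0.16 in the wild type.

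Both subunits of U2AF, which binds the pyrimidine tract and the 3′ splice site, were below 0 on every array. The gene prp2 codes for the large subunit and had −0.62 and −1.59 in mmi1-ts3 and −0.52 and −0.89 in the wild type. It fell in mmi1-ts3 (mean −1.11 ± 0.69 SD, adjusted p = 0.0282, and 0.249 without mmi1-ts3 replicate 2) and did not pass in the wild type (−0.70 ± 0.26 SD, adjusted p = 0.113). The small subunit gene uaf2, which the symbol rule does not take and which is named for its pairing with prp2 after its values were seen, had −0.66 and −1.34 in mmi1-ts3 and −0.54 and −1.03 in the wild type. It fell in mmi1-ts3 (adjusted p = 0.026) and did not pass in the wild type (adjusted p = 0.0612). In both genes the replicate 2 array was the lower one of each strain. The helicase gene prp11, whose product acts when U2 binds, had 0.31 and 0.73 in mmi1-ts3 and 0.52 and 0.05 in the wild type, and passed in neither.

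The tri-snRNP brings in the U6 and U5 RNAs that form the active site. Of 8 genes placed with it, 2 fell and 1 rose in mmi1-ts3, where 19.6% and 14.9% of all genes did. In the wild type 0 passed. There an unadjusted p under 0.05 was found for 2 lower and 0 higher of the 8, against the same 20.9% and 20.7% of all genes. The gene prp4, for the kinase that phosphorylates the tri-snRNP protein Prp1, had −0.73 and −0.70 in mmi1-ts3 and −0.32 and −0.55 in the wild type. It fell in mmi1-ts3 (adjusted p = 0.0241, and at most 0.184 with an array left out). The GTPase gene cwf10 had −0.74 and −0.63 in mmi1-ts3 and −0.41 and 0.06 in the wild type. Its fall in mmi1-ts3 had an adjusted p = 0.04 (at most 0.247 with an array left out). Without centring that p was 0.0689, with quantile normalization 0.0685, with arrays scaled to one spread 0.053 and with the local median of each spot's 50 neighbours on either side in the table subtracted 0.226 (mean −0.31). For both genes the mmi1-ts3 arrays lay below both wild-type arrays.

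The gene prp24, which in budding yeast codes for a protein that anneals U6 to U4, rose in mmi1-ts3. It had 0.46 and 0.96 in mmi1-ts3, against −0.001 and −0.22 in the wild type (adjusted p = 0.0417 in mmi1-ts3, 0.0728 and 0.409 without its replicate 1 or 2, and 0.715 in the wild type). The spots around prp24 in the table were themselves high on mmi1-ts3 replicate 2, with a local median of 0.64, against 0.22 on wild-type replicate 2. With the local median subtracted, prp24 had a mean of 0.27 in mmi1-ts3 (adjusted p = 0.266). The remaining genes of the group stayed near 0 or differed between arrays. Activation factor gene prp38 had −0.84 and −0.44 in mmi1-ts3 and −0.06 and −1.22 in the wild type. The U4/U6 protein gene prp3 held between −0.27 and −0.37 in mmi1-ts3 and between −0.31 and −0.40 in the wild type, and passed in neither strain. Its partner prp31 had means of 0.12 in mmi1-ts3 and 0.20 in the wild type. For prp1, the protein that Prp4 phosphorylates, the replicate 1 arrays were below 0 and the replicate 2 arrays above it (−0.27 and 0.22 in mmi1-ts3, −0.38 and 0.63 in the wild type).

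Sm and LSm proteins form rings around the small nuclear RNAs: the Sm ring on U1, U2, U4 and U5, and the LSm ring of Lsm2 to Lsm8 on U6. In the LSm group 2 of 7 genes fell in mmi1-ts3 and 1 in the wild type, where 19.6% and 14.5% of all genes did. The fall of lsm5 was the larger. It had −1.41 and −1.32 in mmi1-ts3 and −0.69 and −1.65 in the wild type, a mean of −1.36 ± 0.06 SD (adjusted p = 0.0129) and −1.17 ± 0.68 SD (adjusted p = 0.0253), and without wild-type replicate 2 its adjusted p there was 0.126. The gene lsm6 had −0.69 and −0.92 in mmi1-ts3 and −0.14 and −0.88 in the wild type. It fell in mmi1-ts3 (adjusted p = 0.0435, 0.0585 with quantile normalization and at most 0.223 with an array left out), and its adjusted p in the wild type was 0.157.

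The ring's other genes passed in neither strain. The genes lsm2 (means of 0.02 in mmi1-ts3 and 0.02 in the wild type), lsm4 (−0.03 and 0.07) and lsm7 (0.19 and 0.24) stayed within 0.25 of 0 in both strains. For lsm8, the subunit that sets the U6 ring apart from the decay ring, single arrays ran from 0.11 to −1.13 in mmi1-ts3 and from −0.52 to −1.05 in the wild type. The decay subunit gene lsm1 had 0.00 and −0.82 in mmi1-ts3 and 0.06 and −0.66 in the wild type, with both replicate 2 arrays low. Over the 6 genes of the U6 ring measured, means ran from −1.36 to 0.19 in mmi1-ts3 and from −1.17 to 0.24 in the wild type. The Sm genes smd1 and smd2 lay below 0 on all 4 arrays with means of −0.32 and −0.28 in mmi1-ts3 and −0.41 and −0.18 in the wild type, and did not pass.

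Of 14 genes of the Prp19/Cdc5 complex and its partners, 2 fell and 0 rose in each strain, and they were the same genes in both. Among all genes 19.6% fell in mmi1-ts3, 14.5% in the wild type and 13.3% in both. The gene cwf18, whose small product was found with Cdc5, had −1.24 and −0.83 in mmi1-ts3 and −0.67 and −0.94 in the wild type (adjusted p = 0.0116 and 0.031, at most 0.119 and 0.171 with an array left out). The gene cwf4 codes for a scaffold of tetratricopeptide-like repeats and had −0.71 and −0.68 in mmi1-ts3 and −0.48 and −0.85 in the wild type (adjusted p = 0.0316 and 0.043, at most 0.205 and 0.241 with an array left out). All 8 values were below 0, and the strains overlapped in both genes.

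The ubiquitin ligase gene prp19, for which the complex is named, had −0.44 and −0.43 in mmi1-ts3 and −0.13 and −0.08 in the wild type and passed in neither strain. Core gene cwf7 had 0.48 and 0.26 in mmi1-ts3 and 0.52 and 0.26 in the wild type, and cwf12 had −0.42 and −0.35 in mmi1-ts3 and −0.11 and −0.54 in the wild type. The highest mean of the group was that of cwf15, with 0.47 and 1.57 in mmi1-ts3 and 0.14 and 1.07 in the wild type, high on both replicate 2 arrays (adjusted p = 0.0703 and 0.244). The spots around cwf15 in the table had local medians of 0.76 and 0.93 on mmi1-ts3 and wild-type replicate 2, and 0.12 and −0.24 on replicate 1 in the same order. Their part in the values of cwf15 was not tested. The gene cwf14 had −0.50 and −0.09 in mmi1-ts3 and −0.15 and −1.24 in the wild type, where replicate 2 was the lowest array. The other 7 genes of the group (cwf2, cwf3, cwf5, cwf11, prp5, prp17 and prp45) passed in neither strain, with means from −0.21 to 0.35 in mmi1-ts3 and from −0.16 to 0.31 in the wild type.

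Among 16 genes of catalytic and late factors, 1 fell and 2 rose in mmi1-ts3, where 19.6% and 14.9% of all genes did. In the wild type 1 fell and 1 rose, where 14.5% and 13.5% of all genes did. The fall of prp43 was the largest of all 67. It codes for the DEAH-box helicase that takes the spliceosome apart after splicing, and in budding yeast the same protein also works in ribosome assembly. It had −1.68 and −2.10 in mmi1-ts3 and −1.60 and −1.94 in the wild type, so every array was far below 0 and the strains overlapped. The level at 36 °C was 0.27 times that at 25 °C in mmi1-ts3 (mean −1.89 ± 0.29 SD, adjusted p = 0.0022) and 0.292 times in the wild type (−1.77 ± 0.24 SD, adjusted p = 0.0033).

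The other helicases of this kind passed in neither strain. The gene prp16, for the helicase of the second catalytic step, had 0.29 and −0.04 in mmi1-ts3 and 0.49 and 0.71 in the wild type (adjusted p = 0.625 and 0.0594). The gene prp22, for the helicase that releases the spliced mRNA, had −0.54 and 0.86 in mmi1-ts3 and −0.51 and 1.06 in the wild type. Its sign followed the replicate and not the strain, and the spots around it had local medians of 0.76 and 0.99 on the same replicate 2 arrays, close to its own values there. The sign followed the replicate for 4 members with both replicate 2 arrays above 0 and for 6 with both below 0; over all genes the shares were 3.9% and 3.98%.

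The gene cwf20, another Cdc5-associated factor, rose in both strains. It had 1.02 and 1.05 in mmi1-ts3, against 0.54 and 0.76 in the wild type (adjusted p = 0.00766 and 0.038). With an array left out the adjusted p was at most 0.0568 in mmi1-ts3 and 0.201 in the wild type, where it was 0.051 without centring. With the local median subtracted its mean in mmi1-ts3 was 0.65 (adjusted p = 0.0241), lower by more than 1.5 times, and the neighbouring spots had a local median of 0.58 on mmi1-ts3 replicate 2. The gene cwf29, for a protein of the RES complex that retains and splices pre-mRNA, had 0.70 and 0.64 in mmi1-ts3 and 0.32 and 0.54 in the wild type. It rose in mmi1-ts3 (adjusted p = 0.0294, and at most 0.224 with an array left out). Its neighbouring spots had a local median of 0.79 on mmi1-ts3 replicate 2, and with local medians subtracted its mean in mmi1-ts3 was 0.15 (adjusted p = 0.595).

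First-step factor gene cwf16 had 0.90 and 0.36 in mmi1-ts3 and 0.74 and 0.32 in the wild type, above 0 on every array and short of the test (adjusted p = 0.0747 and 0.125). The gene cwf25, also of the first step, had −0.16 and −0.19 in mmi1-ts3 and 0.19 and −1.34 in the wild type. For cwf19 a single array stood apart, with 0.17 and −1.83 in mmi1-ts3 and 0.15 and −0.50 in the wild type. The gene cwf24, for a RING-finger protein, had means of 0.12 in mmi1-ts3 and 0.38 in the wild type. None of these 4 passed in either strain. Nor did the 6 genes cwf21, cwf22, cwf23, cwf28, prp18 and slu7, the last pair known for the second catalytic step, whose means ran from −0.20 to 0.20 in mmi1-ts3 and from −0.22 to 0.24 in the wild type.

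**Figure D3:**
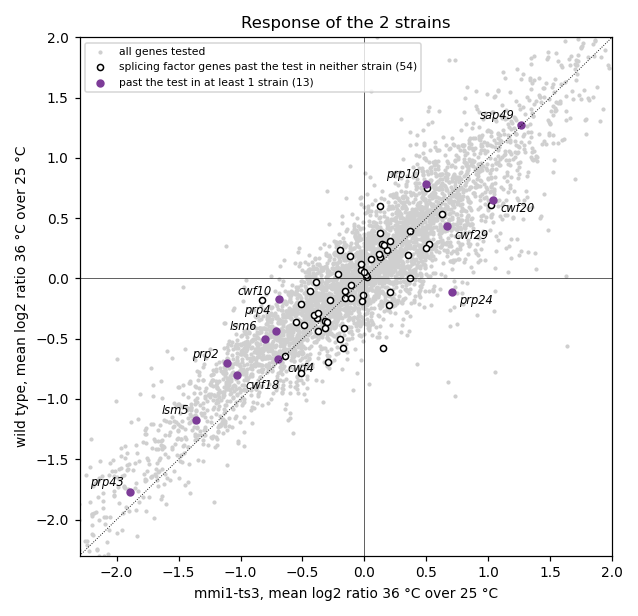
Mean log2 ratio at 36 °C over 25 °C in mmi1-ts3 (horizontal) against the wild type (vertical) for all genes tested (grey), the 54 splicing factor genes past the test in neither strain (open) and the 13 past it in at least 1 strain (filled, named). The dotted line marks equal responses; prp43, lsm5 and sap49 lie near it, and prp24 lies to its right.

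The order of the splicing factors was similar in both strains. Pearson's r between the strain means was 0.86 and Spearman's rho 0.81 over the 67 genes, and Pearson's r was 0.94 over all genes, as a description, since genes are not independent and arrays of like number share deviations. Between the 2 arrays of a strain, Pearson's r over the members was 0.67 in mmi1-ts3 and 0.58 in the wild type, against 0.87 and 0.77 over all genes. Gene length showed little relation to the response (Pearson's r of 0.08 with the mean over the 4 arrays, n = 67 genes). Means of members that neighbour each other on a chromosome are given as description, without a test between them. Next to each other on chromosome III, prp11 and cwf23 had means of 0.52 and 0.05 in mmi1-ts3 and 0.28 and 0.16 in the wild type. Adjacent on chromosome II, cwf22 and cwf24 had −0.11 and 0.12 in mmi1-ts3 and −0.05 and 0.38 in the wild type. The pair sap18 and prp18 on chromosome III had −0.16 and 0.20 in mmi1-ts3 and −0.11 and −0.22 in the wild type. These pairs were named after their values were seen, and none of their genes passed the test in either strain.

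The strain comparison asks whether loss of Mmi1 function changes the response of these genes. At an adjusted p under 0.05 by limma, 0 of the 67 had a larger response in mmi1-ts3 and 0 a smaller one, where 0% of all genes were called in either direction. Without adjustment, 1 member had a positive difference and 0 a negative one at a p under 0.05, where 1.03% and 0.859% of all genes did. The median difference, mmi1-ts3 minus wild type, was −0.05 over the members and −0.07 over all genes. It took both signs with an array left out, at 0.05 without wild-type replicate 1 and −0.14 without wild-type replicate 2. For 43 members the 95% interval of the difference lay within 1 of 0 on the log2 scale, which 59.8% of all genes had.

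Both mmi1-ts3 arrays lay above both wild-type arrays for 7 members and below them for 7, where 9.37% and 20.4% of all genes were separated in these directions. The largest difference was that of prp24, at 0.82 ± 0.28 SE (95% interval 0.12 to 1.51, adjusted p = 0.998). It was 0.46 between the replicate 1 arrays and 1.17 between the replicate 2 arrays, and 0.52 with local medians subtracted. The gene usp101, for an RNA-binding protein of U1 alone, came next. It had −0.25 and 0.54 in mmi1-ts3, against −0.44 and −0.72 in the wild type, a difference of 0.73 ± 0.34 SE (95% interval −0.12 to 1.57). Without mmi1-ts3 replicate 2 it was 0.33, and with local medians subtracted 0.40, and its size thus rested on the single positive array. Its spot neighbourhood had a local median of 0.60 on that array.

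Further separated genes had smaller differences: 0.38 for cwf20, 0.37 for cwf26, whose product is the partner of Cwf29 in the RES complex, 0.31 for prp28, a helicase gene of the exchange of U1 for U6, and 0.24 for usp108 and for cwf29. On the lower side stood cwf10 (−0.51 ± 0.27 SE), prp16 (−0.48 ± 0.26 SE), prp12 (−0.36), prp19 (−0.33), usp103, another U1 gene (−0.30), sap61 (−0.30) and prp4 (−0.28). Apart from prp24 and usp101 none reached 0.55 in size, and the 95% intervals of all but prp24 included 0. With local medians subtracted the difference of cwf20 was 0.04, that of cwf26 0.19, of prp28 0.13 and of usp108 0.11, while cwf10 was −0.26, prp16 −0.28, prp19 −0.10, usp103 −0.12 and sap61 −0.17. That of prp12 ran from −0.504 to −0.22 over all alternatives. For cwf29 and prp4 the alternatives were not run on the difference. The spots around cwf29 had local medians of 0.255 and 0.785 in mmi1-ts3 and −0.023 and 0.491 in the wild type, so its 0.24 may not stand.

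**Figure D4:**
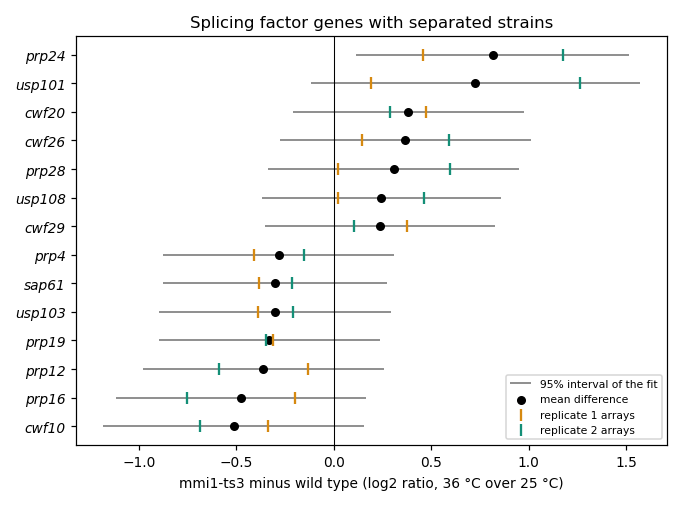
Difference of the responses, mmi1-ts3 minus wild type (log2 ratio at 36 °C over 25 °C), for the 14 splicing factor genes whose strains did not overlap; points are means, bars the 95% interval of the fitted model (n = 2 arrays per strain) and ticks the differences between arrays of like replicate number. All intervals but that of prp24 cross 0.

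Other genes of splicing were taken from a list by name. Of 35 tested, 7 fell and 1 rose in mmi1-ts3 and 4 fell and 1 rose in the wild type, with medians of −0.15 and −0.22, beside the 19.6% and 14.9% of all genes that fell and rose in mmi1-ts3 and the 14.5% and 13.5% in the wild type. The gene snu13 fell most, with −1.56 and −2.001 in mmi1-ts3 and −1.32 and −1.93 in the wild type (adjusted p = 0.00386 and 0.00604). Its product binds U4 snRNA and is also a core protein of box C/D snoRNPs, which modify ribosomal RNA. The Sm ring gene smg1 had −1.17 and −1.66 in mmi1-ts3 and −0.74 and −1.66 in the wild type (adjusted p = 0.0132 and 0.0269, and 0.0505 and 0.148 without the replicate 2 array of the strain). The gene spp27 also fell, with means of −1.48 in mmi1-ts3 and −1.33 in the wild type, and a wild-type adjusted p of 0.00773 that was 0.0536 without wild-type replicate 2, but it is known for RNA polymerase I transcription and stands on the list by its name only. The only riser was sde2, which codes for a ubiquitin-like protein that acts on the splicing of certain introns. It had means of 1.61 in mmi1-ts3 and 1.16 in the wild type (adjusted p = 0.00325 and 0.0106, the second 0.059 without wild-type replicate 1). The core genes spp42, for the U5 protein at the active site, and brr2, for the helicase that unwinds U4 from U6, were named after their values were seen. They had means of −0.22 and −0.15 in mmi1-ts3 and −0.25 and −0.05 in the wild type, and did not pass.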

How the data were processed

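The deposited log2 ratios, 1 per spot and array, were made by the authors, and for their background correction, normalization and log base the method was not given in the sources used here. A base of 10 was set aside because the highest value, 7.81, exceeds 4.82, the range of a 16-bit scanner; with a natural log every value would lie further from 0. Labels name Cy5 for the shifted sample but the labelling protocol names Cy3, and no dye swap. Gene names came from the platform annotation; 4930 of 4933 spots with 1 gene matched RefSeq assembly ASM294v3, 1 had several genes and 254 none. Spots of 1 gene were averaged, genes with a value on all 4 arrays kept, and each array centred on its median. Responses and their difference were fitted with limma 3.58.1 (R 4.3.3) on all 4771 genes, with a mean per strain and eBayes, checked on simulated data. Calls used Benjamini-Hochberg adjusted p under 0.05. The smallest p of an exact permutation test between the strains is 0.333, so none was run. Nothing states that replicates were separate cultures, so p-values may measure technical spread. The members, lists and tests were chosen with earlier results of these data known. Named genes were the called members (up to 8 per direction and strain), the 6 highest and lowest separated differences, up to 4 more per role, and 3 other splicing genes per direction. Alternatives, 14 in all, changed the centring, genes kept, variance model, threshold and arrays. Replicates were numbered in record order, which splits arrays with uncoded and coded titles; no label says that a number marks a shared culture or batch.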

Additional observations from a re-analysis of the deposited data

Results flagged for a closer look

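The arrays of the 2 strains lay on opposite sides of 0 for 2 of the 67 splicing factor genes, against 2.37% of all genes tested. The gene prp24 was above 0 on both mmi1-ts3 arrays and below 0 on both wild-type arrays, with a difference of 0.815. The gene sap61, for a subunit of SF3a, was below 0 on both mmi1-ts3 arrays (−0.17 and −0.06) and above 0 on both wild-type arrays (0.21 and 0.16), with a difference of −0.30. Neither difference passed the limma test (adjusted p = 0.998 for each). With each array left out in turn the difference ran from 0.564 to 1.07 for prp24 and from −0.36 to −0.24 for sap61. A gap over 2 between the 2 arrays of a strain was set as a flag, and no member reached it. The widest gap was that of cwf19 in mmi1-ts3 (0.17 and −1.83). Since a strain has only 2 arrays, a gap does not tell which array is off.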

How the results depend on the processing

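The main counts of splicing factor genes were 8 lower and 4 higher in mmi1-ts3, 4 lower and 3 higher in the wild type, and 0 in the strain difference, which stayed 0 under every alternative run. Without variance moderation 0 members were called in any direction, against 67 lower and 49 higher genes in mmi1-ts3 and 0 and 1 in the wild type over all genes. Requiring a mean of at least 1 left 4 lower and 2 higher in mmi1-ts3 and 2 lower and 1 higher in the wild type. Without centring 1 member was higher in the wild type, and with the local median over the 50 spots on either side subtracted 5 were. That local setting called 12 members in mmi1-ts3, of which 9 were main calls, and 10 in the wild type, of which 7 were. Which members were called only there is not given. With the array set as a replicate block 7 were higher in the wild type, and calls were 16 in mmi1-ts3 and 13 in the wild type, holding all 12 and 7 of the main ones; array deviations of like number correlated at 0.38 over all genes, with 2 pairs only. With 1 array left out, where a lone array is assumed to vary like the other strain's, the ranges were 3 to 8 lower and 1 to 5 higher in mmi1-ts3, and 1 to 5 lower and 1 to 3 higher in the wild type. The members' median in mmi1-ts3 was −0.062 without centring and −0.093 with quantile normalization, and −0.11 to −0.087 with an array left out; that of the difference ran from −0.14 to 0.053. No gene changed sign under any alternative run in a comparison that names it. Where arrays were left out or a size was required, fewer data or a stricter rule enter the call; for the other settings the cause was not tested. The number of arrays limits the precision, and signal over background was not used here.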
